A study of Mus musculus with 38 samples.

Results

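The genes described here are 9 genes that resting microglia express and that are used to tell homeostatic microglia from other brain cells: P2ry12, P2ry13, Tmem119, Cx3cr1, Sall1, Olfml3, Siglech, Gpr34 and Selplg. They were taken as a list of known genes, matched by Ensembl identifier to their mouse symbols, and are 9 of the 48709 genes counted in each mouse. The rule that names them uses no measured value, but the list was drawn up with earlier results of these data known.

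RNA was sequenced from the hippocampus of 38 C57BL/6 mice. APPPS1ΔE9 mice, given as APPdelta9 in the labels, carry transgenes, mutant APP among them, driven by the prion protein promoter and deposit amyloid β plaques, and wild-type (WT) mice served as controls. Mice of either genotype received a placebo chow or a chow with anle138b, a diphenylpyrazole compound. The pre-plaque cohort was analyzed at 6 months of age and held 4 WT placebo, 4 WT anle138b, 4 APPPS1ΔE9 placebo and 4 APPPS1ΔE9 anle138b mice, while the post-plaque cohort was analyzed at 10 months and held 5, 5, 5 and 7 mice in the same order. The cohort names refer to the start of treatment, and the paper counted plaques in APPPS1ΔE9 mice of both cohorts at analysis. Where before plaques or after plaques is written below, it names the cohort only. The comparison of genotypes asks whether homeostatic genes fell, rose or kept pace with other microglial genes when amyloid was deposited. The comparison of chows asks whether anle138b altered that.

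Microglia are the resident macrophages of the brain. In the healthy tissue they hold a resting state that depends on TGF-β signalling and on the transcription factor SALL1, and in it they survey their surroundings with purinergic and chemokine receptors. Around amyloid plaques, microglia are known to take up another state, in which genes such as Cst7, Clec7a and Trem2 are high and resting genes can be lower in each cell. Whole hippocampus RNA mixes all cells, so that a change in the number of microglia and a change of RNA per microglia cannot be told apart in these data.

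Promoter sequences of 6 of the 9 genes were found in RefSeq (GRCm38.p6), as windows from 250 bases before to 50 bases after a transcription start. The 4 windows below belong to genes that stood at different places in the results: P2ry12 (chr3:59262936-59263235, minus strand) and its neighbour P2ry13 (chr3:59210833-59211132, minus strand), which did not pass the test between genotypes, and Cx3cr1 (chr9:120068247-120068546, minus strand) and Siglech (chr7:55767934-55768233, plus strand), which did. Each is written 5′ to 3′ on the strand of its gene, and the capitals mark AGGAA on either strand, a purine-rich core of the kind that the myeloid factor PU.1 binds.
P2ry12: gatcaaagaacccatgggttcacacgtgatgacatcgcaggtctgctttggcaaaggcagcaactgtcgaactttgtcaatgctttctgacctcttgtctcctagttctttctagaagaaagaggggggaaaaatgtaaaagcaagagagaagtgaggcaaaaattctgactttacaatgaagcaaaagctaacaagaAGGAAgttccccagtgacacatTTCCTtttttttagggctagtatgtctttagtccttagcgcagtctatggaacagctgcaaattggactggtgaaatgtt
P2ry13: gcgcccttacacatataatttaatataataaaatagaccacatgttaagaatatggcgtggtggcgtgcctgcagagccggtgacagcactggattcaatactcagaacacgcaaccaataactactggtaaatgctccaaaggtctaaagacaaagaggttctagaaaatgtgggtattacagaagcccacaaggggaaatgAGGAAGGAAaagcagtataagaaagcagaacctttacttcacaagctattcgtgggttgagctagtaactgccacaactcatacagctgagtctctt
Cx3cr1: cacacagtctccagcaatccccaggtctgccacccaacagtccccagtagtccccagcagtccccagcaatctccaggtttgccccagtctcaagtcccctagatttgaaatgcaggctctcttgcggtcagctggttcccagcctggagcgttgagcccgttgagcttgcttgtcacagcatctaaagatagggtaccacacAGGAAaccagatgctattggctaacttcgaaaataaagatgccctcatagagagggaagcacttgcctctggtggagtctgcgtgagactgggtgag
Siglech: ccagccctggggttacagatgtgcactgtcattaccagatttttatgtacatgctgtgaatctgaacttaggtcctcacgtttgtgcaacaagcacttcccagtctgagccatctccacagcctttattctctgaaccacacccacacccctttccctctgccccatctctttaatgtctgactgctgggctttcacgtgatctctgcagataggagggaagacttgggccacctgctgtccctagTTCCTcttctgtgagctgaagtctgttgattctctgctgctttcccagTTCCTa
The first AGGAA began at base 199 of the P2ry12 window and at base 204 of both the P2ry13 and the Cx3cr1 window, counted from 1 at the 5′ end. In Siglech the motif lay on the other strand, from base 247 and from base 295. All 6 genes with a promoter held AGGAA in at least a single window (Sall1 had 3 windows), and so did 69.8% of the 27025 genes searched, so that its presence sets the list little apart. The longer GAGGAAGT, which contains AGGAA, was in 0 of the 6 genes and in 3.69% of all genes. The same windows differed in base composition. P2ry12 and P2ry13 had a GC content of 42.3%, Siglech of 50% and Cx3cr1 of 54.3%, whereas the 3 windows of Sall1 had 57.3%, 70% and 79.7%.

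Total counts lay between 15847985 and 31895808 per mouse. App was between 3235 and 4316 CPM (read counts scaled to a common library size with TMM) in the 20 mice used as APPPS1ΔE9 and between 1516 and 1806 CPM in the 18 used as WT, with no overlap. Those 18 include 4 placebo mice of the pre-plaque cohort that the titles call WT and another label calls APPdelta9. Markers of hippocampal neurons were present in every mouse. All mice are described as male in the study's methods. Yet 12 of the 38 had over 1154 CPM of Xist and under 1.89 CPM of Y-linked RNA in sum. In the pre-plaque cohort these were 5 of 8 WT and 0 of 8 APPPS1ΔE9 mice. In the post-plaque cohort they were 6 of 10 WT and 1 of 12 APPPS1ΔE9 mice. The summed level of 6 choroid plexus markers was over 1000 CPM in 11 mice, 10 of them in the pre-plaque cohort. Sequencing lanes nearly coincided with groups, so that lane and genotype cannot be told apart.

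All 9 homeostatic genes were counted in every mouse, with counts from 217 for P2ry13 to 2291 for Cx3cr1, and all passed the filter on low counts in every comparison. Per kilobase of exon, P2ry12, the ADP receptor that guides microglial processes, was the most abundant at 17.5 ± 2.17 CPM per kb (SD, n = 38 mice). Cx3cr1, the receptor of the neuronal chemokine fractalkine, followed at 14.0 ± 2.43 CPM per kb. Tmem119, a membrane protein used as a microglial marker, was at 10.4 ± 1.31 CPM per kb. Gpr34, a lysophosphatidylserine receptor, was at 8.58 ± 1.66 and Selplg, the P-selectin ligand PSGL-1, at 8.28 ± 1.23 CPM per kb, closer to each other than their spread. The sialic acid-binding lectin gene Siglech was at 6.91 ± 1.38, P2ry13, a second ADP receptor, at 6.62 ± 1.04, Sall1 at 5.39 ± 0.584 and Olfml3, a secreted matrix protein, at 3.84 ± 0.856 CPM per kb. The last value rests on a union of exons of 6161 bases, the longest of the list.

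The genes lie on chromosomes 3 (P2ry12, P2ry13, Olfml3), 5 (Tmem119, Selplg), 7 (Siglech), 8 (Sall1), 9 (Cx3cr1) and X (Gpr34). P2ry12 and P2ry13 sit on the minus strand within the span of Med12l on the plus strand, and Gpr34 lies within the span of Cask on the opposite strand. Of exon bases, P2ry12 shared 9 of 2546 with Med12l and Cx3cr1 shared 78 of 4505 with an antisense gene, while the other 7 genes shared none. Whether the counting used strand is not stated, so reads from these short overlaps could belong to either gene.

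In the post-plaque cohort, part of the homeostatic genes had more RNA in amyloid-bearing mice, and none was called lower. With 12 APPPS1ΔE9 and 10 WT mice compared over both chows, with chow as a term, 5 of the 9 genes rose and 0 fell, where 1.43% of the 17668 genes tested rose (edgeR quasi-likelihood test, Benjamini-Hochberg adjusted p under 0.1 over all genes). Cx3cr1, Olfml3, Siglech, Selplg and Sall1 passed the test. The median log2 fold change of the 9 genes was 0.31, against -0.00 over all genes tested.

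Cx3cr1 showed the clearest difference of the list. The WT placebo mice had 42.3, 57.7, 59.03, 51.2 and 54.3 CPM and the WT anle138b mice 46.5, 51.2, 58.98, 53.7 and 50.8 CPM. APPPS1ΔE9 placebo mice had 67.2, 63.5, 61.2, 76.6 and 84.5 CPM, and the 7 APPPS1ΔE9 anle138b mice ranged from 59.4 to 84.1 CPM with a median of 77.3 CPM. Each of the 12 transgenic mice was therefore above each of the 10 WT mice, by a narrow margin at the nearest values, and Cx3cr1 was the only gene of the list with no overlap, which 0.396% of all tested genes reached in the higher direction. The log2 fold change was 0.46 ± 0.07 (SE) with an adjusted p of 0.00041.

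Siglech and Olfml3 rose by a similar amount. Siglech was at 20.2 ± 2.05 CPM (SD, n = 5) in WT placebo and 19.7 ± 2.14 CPM (n = 5) in WT anle138b mice, against 26.4 ± 5.49 CPM (n = 5) and 28.4 ± 4.94 CPM (n = 7) in APPPS1ΔE9 mice on placebo and anle138b. Placebo-treated APPPS1ΔE9 mice had 24.8, 23.8, 19.9, 28.96 and 34.4 CPM of Siglech, and the lowest of them fell among the WT values of 17.9, 21.2, 22.4, 18.1 and 21.3 CPM. The log2 fold change of Siglech was 0.45 ± 0.09 with an adjusted p of 0.0085. Olfml3 was at 20.1, 19.8, 20.4, 18.8 and 17.2 CPM in WT placebo mice and at 23.3, 27.7, 23.2, 30.04 and 33.7 CPM in APPPS1ΔE9 placebo mice, which did not overlap. On anle138b the WT mice spread from 13.4 to 24.98 CPM and the transgenic mice from 23.2 to 40.3 CPM, and these did overlap. The 2 Y-expressing WT mice on anle138b had 16.7 and 13.4 CPM and the 3 with high Xist 24.4, 24.98 and 21.4 CPM, and the highest transgenic value was that of the only post-plaque APPPS1ΔE9 mouse with high Xist. With the Y-linked covariate Olfml3 passed on anle138b (log2 fold change 0.79, edgeR adjusted p = 0.0016), whereas without it the change of 0.52 had an adjusted p of 0.58. Its log2 fold change over both chows was 0.51 ± 0.11 with an adjusted p of 0.0095.

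Selplg and Sall1 rose less. WT placebo mice had 23.8, 37.3, 32.6, 26.6 and 33.2 CPM of Selplg and APPPS1ΔE9 placebo mice 37.9, 42.0, 33.7, 42.1 and 40.2 CPM, and a transgenic mouse lay below the highest WT mouse. The log2 fold change over both chows was 0.35 ± 0.08 with an adjusted p of 0.017. Sall1, the transcription factor that holds the microglial identity, was at 22.9, 29.9, 27.2, 24.4 and 26.7 CPM in WT placebo mice and at 31.4, 27.9, 29.4, 32.5 and 32.8 CPM in APPPS1ΔE9 placebo mice. It overlapped between genotypes in both chows, and its change of 0.20 ± 0.05 on the log2 scale had an adjusted p of 0.032. The mice with high Xist lay unevenly between genotypes. Without them 3 of the 9 genes passed, Cx3cr1, Olfml3 and Gpr34 (adjusted p = 0.046), where 141 genes were called in all, against 275 with all mice. Siglech (adjusted p = 0.38), Sall1 (0.34) and Selplg (0.79) no longer did, at log2 fold changes of 0.46, 0.19 and 0.25. That fit holds fewer mice, and it lost mainly WT mice. With summed Y-linked RNA as a covariate 4 passed, Cx3cr1, Olfml3, Siglech and Gpr34, and Sall1 (0.14) and Selplg (0.12) lost their call. Both also lost it with the replicate number as a block (0.104 and 0.103), where Cx3cr1, Olfml3 and Siglech passed (all edgeR).

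Both purinergic receptors, Tmem119 and Gpr34 did not pass the test. P2ry12 was at 37.9, 41.6, 42.9, 35.3 and 41.04 CPM in WT placebo mice and at 40.7, 42.4, 41.03, 47.1 and 55.8 CPM in APPPS1ΔE9 placebo mice, whose lower values lay inside the WT range. The log2 fold change of P2ry12 was 0.20 (95% interval 0.07 to 0.34, adjusted p = 0.25). P2ry13 had 0.29 (0.11 to 0.47, adjusted p = 0.16), Tmem119 0.21 (0.05 to 0.37, adjusted p = 0.43) and Gpr34 0.31 (0.08 to 0.54, adjusted p = 0.36). All 4 estimates were positive, and none of the 4 unadjusted intervals reached below 0. Of these, P2ry13 passed with DESeq2 (adjusted p = 0.081). Gpr34, which lies on the X chromosome, passed with the Y-linked covariate (log2 fold change 0.56, edgeR adjusted p = 0.0011) and in Y-expressing mice alone (0.50, adjusted p = 0.046). Among WT mice on anle138b, Gpr34 was at 12.3 CPM in both Y-expressing mice and between 17.8 and 19.9 CPM in the 3 with high Xist, whereas on placebo the 2 Y-expressing WT mice (14.5 and 15.1 CPM) lay within the range of the 3 with high Xist (14.2 to 19.2 CPM).

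**Figure D1:**
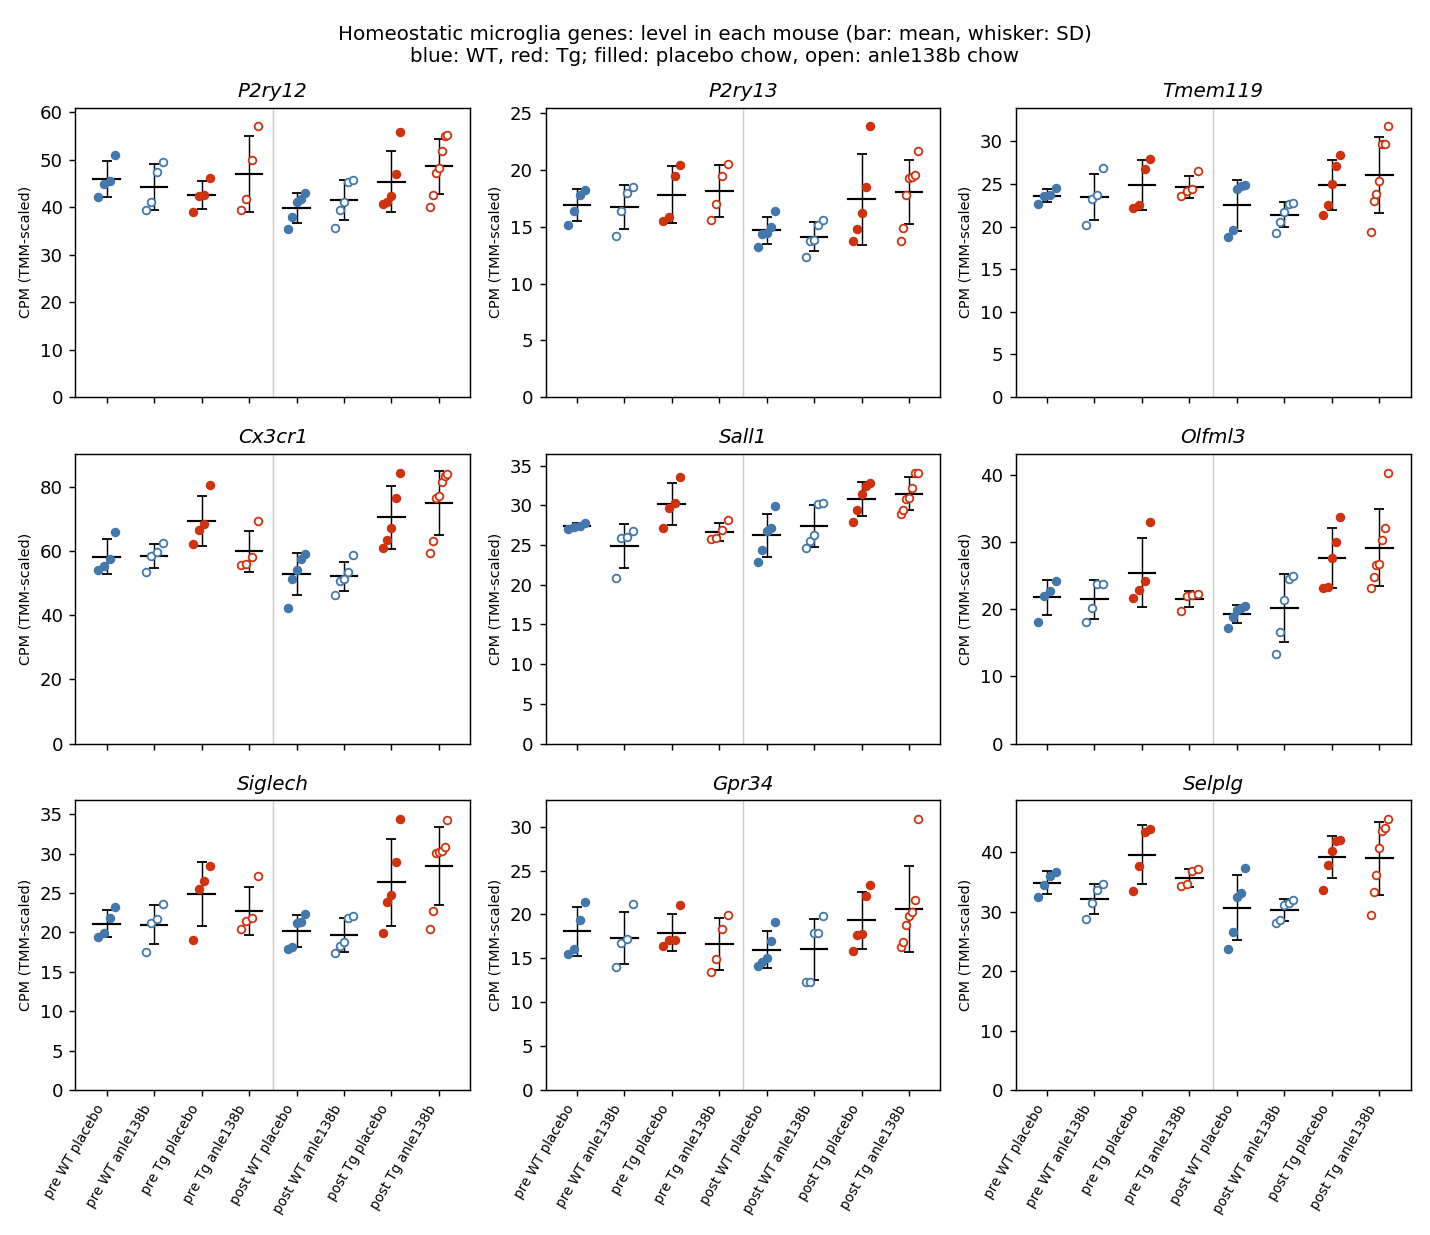
CPM (TMM-scaled, vertical axis from 0) of the 9 homeostatic genes in each of the 38 mice, by group, with the mean as a bar and the SD as a whisker; blue points are WT and red points APPPS1ΔE9 (Tg) mice, filled on placebo and open on anle138b. In the post-plaque groups at the right, Cx3cr1 separates the genotypes without overlap, while P2ry12 and Tmem119 overlap.

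Within a single chow fewer genes passed, and these comparisons use the same mice as the one above. On placebo, 0 of the 9 genes passed, where 0.324% of 16971 genes did, and 5 of the 9 had an unadjusted p under 0.05 (4.1% of all genes); DESeq2 called 2, and 1 passed without the first or the third APPPS1ΔE9 placebo mouse. Values without overlap were seen for Cx3cr1 and Olfml3, and 1.11% of all genes had such values in the higher direction. On anle138b, Cx3cr1 alone passed (log2 fold change 0.51 ± 0.09, adjusted p = 0.029), where 0.723% of 17151 genes did. The estimates of all 9 genes were positive there, from 0.19 for Sall1 to 0.52 for Olfml3. All but Gpr34 (edgeR unadjusted p = 0.062) had an unadjusted p under 0.05, and the share of all genes that did is not given here. The call of Cx3cr1 was lost without the first or the second WT anle138b mouse, when 0 of the 9 passed. Without the fourth APPPS1ΔE9 anle138b mouse 3 passed, and without the fifth 2 did. Calls over all genes were not counted in the fits that left out a mouse. The genotype by chow interaction in this cohort called 0 of the 9 genes and 0% of all genes (edgeR), none of the 9 had an unadjusted p under 0.05, where 2.3% of all genes did, and DESeq2 called 0 of the 9. The estimates for the 9 ran from -0.03 to 0.14 on the log2 scale.

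The other lists of microglial genes moved further. Of 20 pan-microglial genes, which microglia express in any state, 19 rose and 0 fell, with a median log2 fold change of 0.75. Tyrobp, the signalling adaptor of TREM2, rose by 1.39 ± 0.10, Irf8, a myeloid transcription factor, by 0.92 ± 0.09 and Ly86 by 0.87 ± 0.08 on the log2 scale. Ctss, the protease cathepsin S, rose by 0.87 ± 0.09, Fcer1g, the Fc receptor γ chain, by 0.84 ± 0.08 and Ptprc, the leukocyte antigen CD45, by 0.84 ± 0.09. Csf1r, the receptor on which microglial survival depends, rose by 0.43 ± 0.08 and Aif1 by 0.41 ± 0.09, which is in the range of Cx3cr1 and Siglech. Cyth4, named after its value was seen, was the pan-microglial gene that did not pass (0.26 ± 0.14). Of 17 genes known to be induced in microglia at plaques, 12 rose, led by Cst7, a cystatin (6.22 ± 0.30), Clec7a, the receptor Dectin-1 (3.50 ± 0.21), and Itgax, an integrin subunit (3.28 ± 0.21). Ccl4, a chemokine, rose by 3.27 ± 0.32, Trem2, the lipid-sensing receptor, by 1.36 ± 0.13 and Cd68, a lysosomal glycoprotein, by 1.22 ± 0.10.

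Other genes of resting microglia resembled the 9. Of 11 such genes, 6 rose and 0 fell, with a median log2 fold change of 0.30. Lag3 (0.86 ± 0.14), Fcrls (0.73 ± 0.11), Hpgds, a prostaglandin D synthase (0.49 ± 0.10), Slco2b1, an anion transporter (0.30 ± 0.06), Slc2a5, a fructose transporter (0.29 ± 0.08), and Tgfbr1, a TGF-β receptor (0.28 ± 0.07), passed the test. Of ligands and regulators of the resting state, 4 of 9 tested rose, among them Runx1 (0.95 ± 0.12), Tgfbr2 (0.43 ± 0.08) and Tgfb1, the TGF-β1 ligand (0.43 ± 0.11). Cx3cl1, the fractalkine that binds CX3CR1 and is made by neurons, had a log2 fold change of 0.00 ± 0.08.

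**Figure D2:**
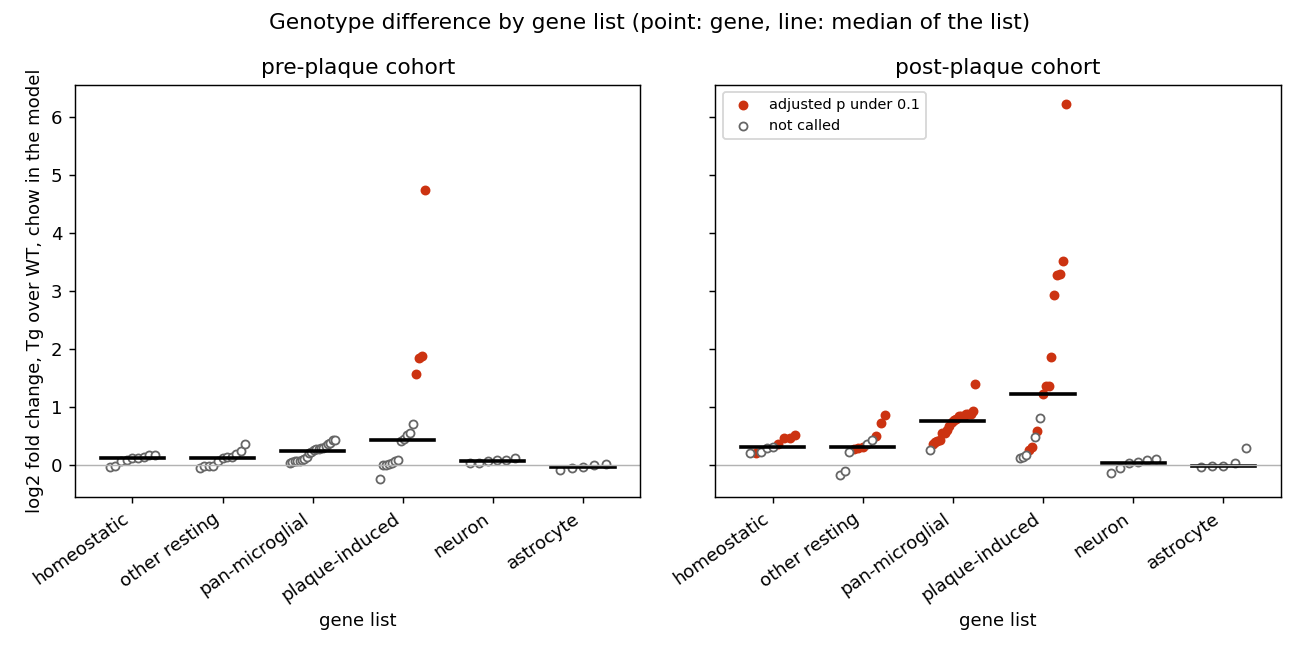
Log2 fold change of APPPS1ΔE9 over WT mice with chow in the model (vertical axis) for each gene of 6 lists, in the pre-plaque (left) and post-plaque (right) cohort; red points passed an adjusted p under 0.1, open points did not, and the line is the median of the list. In the post-plaque cohort the medians were 0.31 for homeostatic, 0.75 for pan-microglial and 1.22 for plaque-induced genes, and those of neuronal and astrocyte markers were close to 0.

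Markers of other cell types did not pass. Of neuronal, hippocampal neuronal, astrocyte, oligodendrocyte, endothelial, choroid plexus and perivascular macrophage markers, 0 passed the test in this comparison (edgeR). The 6 choroid plexus markers had a median log2 fold change of 0.70, but it was -0.72 on placebo and 2.03 on anle138b. Their sum was 4357 CPM in the fifth APPPS1ΔE9 anle138b mouse, where the median of its group was 86.6 CPM. The fold change without this mouse was not tested. Perivascular macrophage markers summed to between 6.15 and 22.3 CPM over all mice and 7 genes, with a median log2 fold change of -0.21 (0 of 7 called). Lymphocyte markers summed to at most 1.22 CPM, and 6 of 7 were at 0 in some mouse. Monocyte and neutrophil markers summed to at most 5.60 CPM, against 215 to 364 CPM for the 9 homeostatic genes.

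The homeostatic genes were also set against a microglial reference. For this, the mean log2 CPM of the 20 pan-microglial genes was subtracted from the log2 CPM of each gene in the same mouse. The reference genes did not rise alike: their own differences between post-plaque genotypes in this ratio ran from -0.43 to 0.68. Whether some of them respond to plaques, and what part this has in the ratio, was not tested. By this ratio all 9 genes were lower in post-plaque APPPS1ΔE9 than in WT mice (limma, adjusted p under 0.1 over all genes), with a median difference of -0.38. The same held for 96.6% of the 17668 genes tested, whose median was -0.69, since any gene that does not rise with microglia falls against this reference. The count of 9 is thus close to the background. In this ratio the homeostatic genes lay between pan-microglial genes and the markers of neurons (median -0.65) or astrocytes (-0.70). Pan-microglial genes had a median of 0.06, with 6 lower and 7 higher of 20, centred by construction. Since the same value was subtracted from every gene of a mouse, this position restates the order of the fold changes above.

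P2ry12, Tmem119 and Sall1 fell furthest behind the reference. The ratio of P2ry12 was 1.44, 1.28, 1.35, 1.43 and 1.39 in WT placebo mice and 1.41, 1.60, 1.43, 1.39 and 1.47 in WT anle138b mice. In APPPS1ΔE9 placebo mice it was 0.87, 0.91, 0.94, 0.85 and 0.97, and on anle138b it ranged from 0.77 to 1.12. No transgenic value reached the WT values, and the difference was -0.49 ± 0.06 on the log2 scale (limma adjusted p = 1.39e-07, and p = 5.01e-06 in a two-sided exact permutation of genotype within chow, the smallest that its 199584 arrangements can give). The limma test was passed in the lower direction by 96.6% of all genes tested, and the median gene was at -0.69. These p-values therefore do not set P2ry12 apart from other genes. Tmem119 differed by -0.48 ± 0.07 and Sall1 by -0.48 ± 0.07. P2ry12, P2ry13 (-0.41 ± 0.07), Tmem119 and Sall1 had no overlap between genotypes, as did 34.1% of all genes tested in the lower direction, while Gpr34 (-0.38 ± 0.08) and Selplg (-0.34 ± 0.07) did overlap.

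Cx3cr1, Siglech and Olfml3 stayed nearest to the reference. Their ratios differed by -0.23 ± 0.06, -0.25 ± 0.06 and -0.17 ± 0.08 between genotypes, and Olfml3 passed only narrowly (adjusted p = 0.057). The choice of reference decided the direction of these 3 genes: against Csf1r alone, Cx3cr1 differed by 0.03, Siglech by 0.01 and Olfml3 by 0.09, and 4 of the 9 genes, rather than 9, were called lower, where 87.4% of all genes were. Against a narrower list of 10 pan-microglial genes 7 were called lower, where 93.3% of all genes were. P2ry12, P2ry13, Tmem119, Sall1, Gpr34 and Selplg had negative differences under each of the 4 references plotted.

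**Figure D3:**
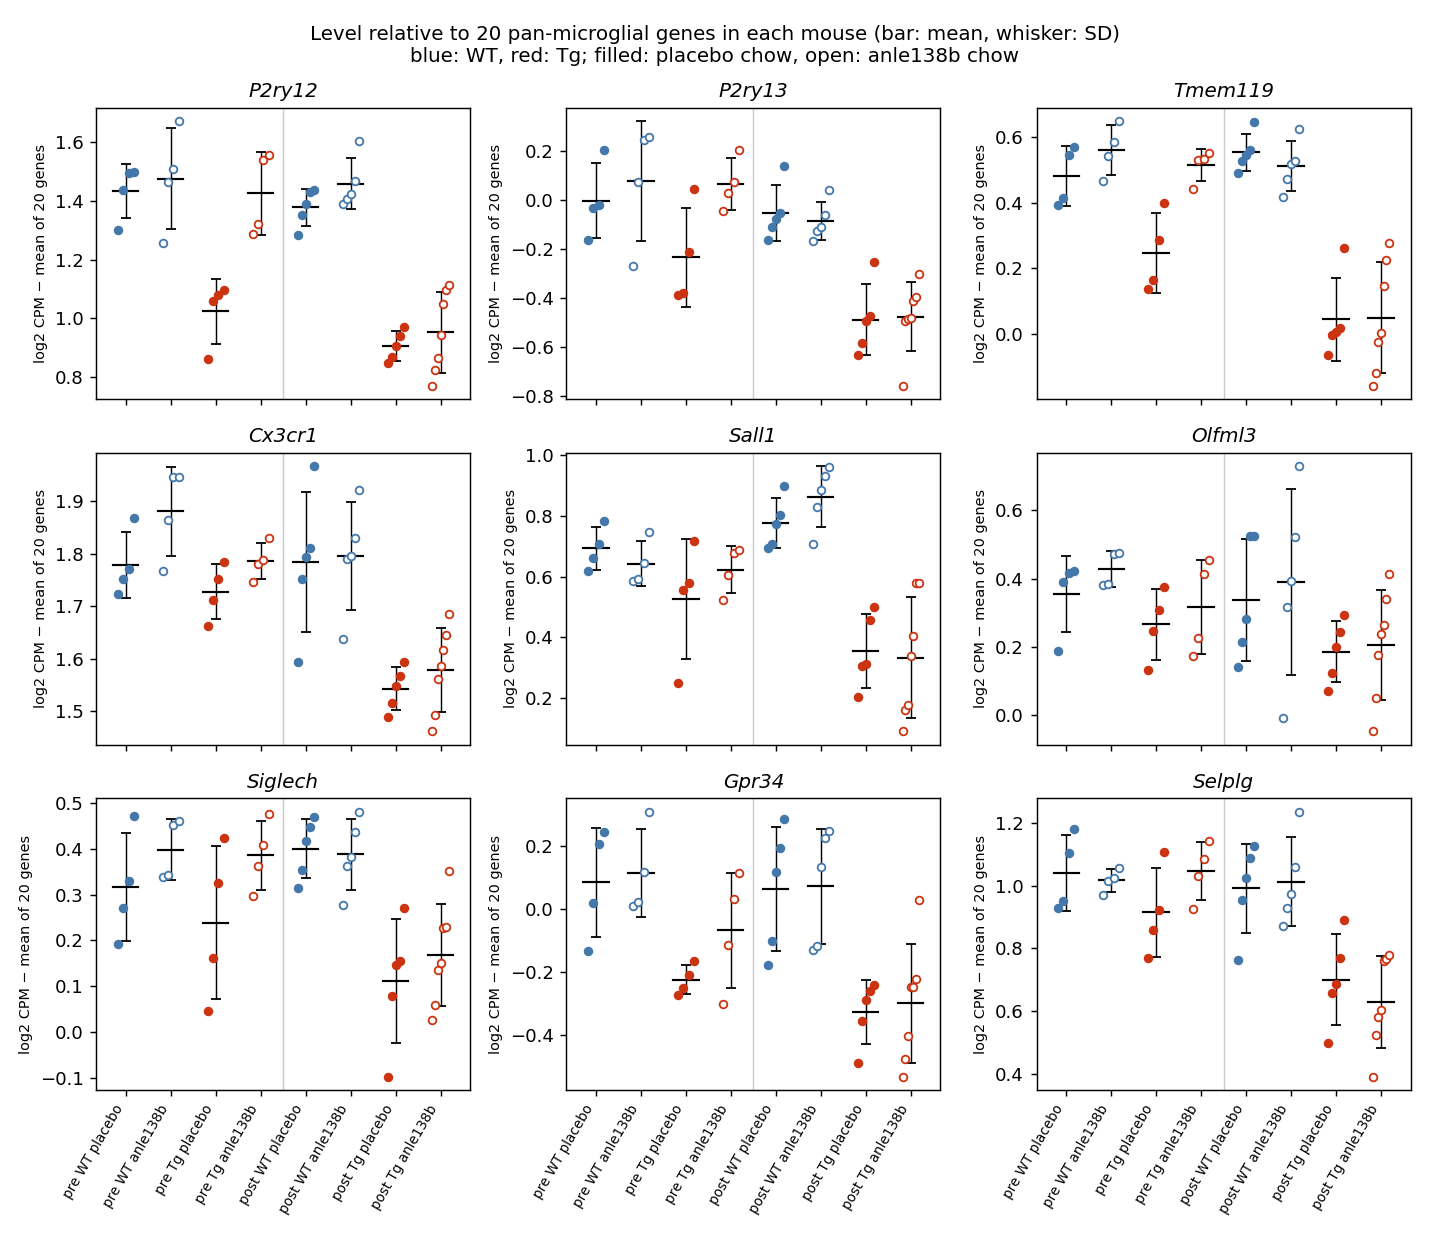
Log2 CPM of each homeostatic gene minus the mean log2 CPM of 20 pan-microglial genes per mouse (vertical axis, not starting at 0), by group. The bar is the mean and the whisker the SD. Blue is WT, red APPPS1ΔE9 (Tg), filled placebo and open anle138b. P2ry12, P2ry13, Tmem119 and Sall1 do not overlap between genotypes in the post-plaque groups at the right, which 34.1% of all genes tested did in the lower direction.

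**Figure D4:**
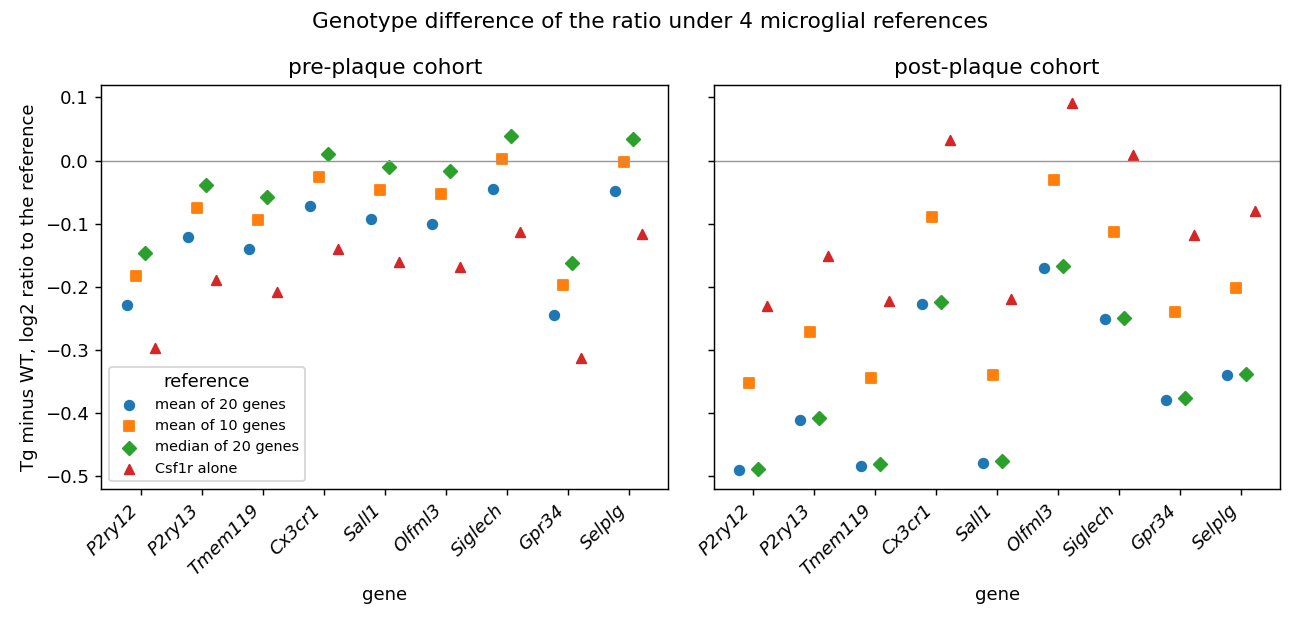
Difference of the log2 ratio between APPPS1ΔE9 and WT mice (vertical axis) for each of the 9 genes under 4 microglial references, in the pre-plaque (left) and post-plaque (right) cohort. In the post-plaque cohort P2ry12 is at -0.49 against 20 genes and stays negative under each reference, while Cx3cr1, Olfml3 and Siglech cross 0 against Csf1r alone.

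In the pre-plaque cohort none of the 9 genes passed the test between genotypes over both chows (8 APPPS1ΔE9 and 8 WT mice, edgeR), where 0.172% of 17404 genes did, and 3 had an unadjusted p under 0.05, where 10.5% of all genes did; DESeq2 also called 0. The log2 fold changes were between -0.04 for Gpr34 and 0.17 for Siglech. The 20 pan-microglial genes had a median of 0.23 with 0 called, while 4 of 16 plaque-induced genes rose, namely Cst7 (4.73 ± 0.43), Itgax (1.88 ± 0.31), Clec7a (1.83 ± 0.26) and Ccl3 (1.57 ± 0.24). Trem2 was at 0.51 ± 0.11 and did not pass.

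On placebo alone in the pre-plaque cohort, Cx3cr1 was at 57.5, 55.5, 54.2 and 66.2 CPM in WT mice. In APPPS1ΔE9 mice it was at 62.3, 66.8, 68.4 and 80.6 CPM. The highest WT mouse overlapped the transgenic mice, and the difference of 0.27 ± 0.08 on the log2 scale did not pass (edgeR adjusted p = 0.36). P2ry12 was at 42.1, 45.6, 44.9 and 51.1 CPM in WT and at 39.04, 42.5, 42.4 and 46.2 CPM in transgenic mice, a log2 fold change of -0.10 ± 0.07 that did not pass either. None of the 9 genes was called, where 0.0715% of 16774 genes were, and 4 had an unadjusted p under 0.05, where 11.1% of all genes did; DESeq2 called 0. A single gene was called without the first APPPS1ΔE9 placebo mouse. On anle138b, 0 of the 9 were called by edgeR, where 0.047% of genes were, with log2 fold changes from -0.08 to 0.13, and 0 had an unadjusted p under 0.05, where 5.64% of all genes did; DESeq2 called 0.

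Relative to the pan-microglial reference, P2ry12 and Gpr34 were lower in pre-plaque APPPS1ΔE9 mice, where 44.5% of 17404 genes were called lower and the median gene was at -0.21. P2ry12 differed by -0.23 ± 0.09 (limma adjusted p = 0.052) and Gpr34 by -0.24 ± 0.09 (adjusted p = 0.048), and the median of the 9 was -0.10. Without the third WT placebo mouse 1 passed. Neither passed against the narrower reference list (22.4% of all genes called lower) or against the median of the 20 genes (0.121%), whereas 6 of the 9 genes were called lower against Csf1r alone, where 70% of all genes were. The difference was more negative on placebo for P2ry12, P2ry13, Tmem119, Sall1, Siglech, Gpr34 and Selplg. For Cx3cr1 (-0.05 on placebo, -0.09 on anle138b) and Olfml3 (-0.09 and -0.11) it was slightly more negative on anle138b. The gap between chows was not tested. On placebo the P2ry12 ratio was 1.30, 1.44, 1.50 and 1.49 in WT and 1.08, 1.06, 1.10 and 0.86 in APPPS1ΔE9 mice, with no overlap, as for 34.3% of 16774 genes in the lower direction. On anle138b it was 1.26, 1.51, 1.67 and 1.47 in WT and 1.32, 1.29, 1.56 and 1.54 in transgenic mice, and the ranges overlapped. The median difference over the 9 genes was -0.17 on placebo and -0.05 on anle138b. All 6 choroid plexus markers had lower estimates in the transgenic placebo mice (median log2 fold change -1.24, 0 called), and their summed level was over 1000 CPM in 3 of 4 WT and 1 of 4 APPPS1ΔE9 mice; their part in these ratios was not tested.

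Whether anle138b altered homeostatic genes was compared within each genotype. In pre-plaque APPPS1ΔE9 mice, none of the 9 genes passed the test (edgeR), where 0.0529% of 17009 genes did. Cx3cr1 had 62.3, 66.8, 68.4 and 80.6 CPM on placebo and 56.1, 55.8, 58.3 and 69.6 CPM on anle138b. Those ranges overlapped, and the log2 fold change was -0.23 ± 0.09 (adjusted p = 0.34). Olfml3 (-0.26 ± 0.11) and Sall1 (-0.20 ± 0.07) had similar estimates and did not pass, and P2ry12 was at 0.13 ± 0.11. In all, 3 of the 9 had an unadjusted p under 0.05, where 13.1% of all genes did, and DESeq2 called 0. The 20 pan-microglial genes had negative estimates throughout, with a median of -0.30 and 0 called. A gene that kept its level would thus have a higher ratio to them on anle138b. The ratios of all 9 genes were higher on anle138b than on placebo, by 0.05 to 0.40 on the log2 scale, without a test. The share of all genes with a higher ratio is not given here, so this count does not set the list apart.

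A choroid plexus difference went along with that comparison. The summed choroid plexus markers were over 1000 CPM in 3 of 4 APPPS1ΔE9 anle138b mice and in 1 of 4 placebo mice, and their median log2 fold change was 1.27 with 0 of 6 called. All 7 perivascular macrophage markers had positive estimates, with a median of 0.48 and 0 called. Their part in the values of the homeostatic genes was not tested. The genotype by chow interaction in the pre-plaque cohort called 0 of the 9 genes and 0% of all genes (edgeR). Cx3cr1 had an estimate of -0.25 ± 0.12 (edgeR adjusted p = 0.62). Of the 9, 1 had an unadjusted p under 0.05, where 7.99% of all genes did, and DESeq2 called 0.

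In the other 3 comparisons of chows no gene of the list passed, and 0% of all genes did (edgeR). For post-plaque APPPS1ΔE9 mice the log2 fold changes of the 9 genes were between -0.00 for Selplg and 0.11 for Siglech, and the widest 95% interval, that of Gpr34, ran from -0.24 to 0.43. For WT mice they lay between -0.12 and 0.03 in the pre-plaque and between -0.07 and 0.07 in the post-plaque cohort. In each of these comparisons 0 of the 9 genes had an unadjusted p under 0.05, where 1.48%, 1.85% and 1.25% of all genes did, and DESeq2 called 0 of the 9. With the 4 post-plaque WT mice that expressed Y-linked genes alone, 5 of the 9 were called lower on anle138b, in a fit that called 5550 genes in all and compares 2 with 2 mice.

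The ages were compared through the genotype by cohort interaction. Cohort and age coincide in it, so that age cannot be told apart from anything else that differs between the cohorts. The labels do not name a sequencing batch. Of the 9 genes, 0 passed on placebo, where 0% of 17681 genes did, and 0 on anle138b, where 0.028% of 17875 did. The largest estimate was that of Olfml3 on anle138b, 0.54 ± 0.23, followed by Cx3cr1, 0.50 ± 0.13 (edgeR adjusted p = 0.40). On anle138b 3 of the 9 had an unadjusted p under 0.05, where 5.84% of all genes did, and on placebo 1 did, where 6.16% did; DESeq2 called 0 in both. Levels in WT placebo mice of both cohorts are given without a test, and age and cohort coincide here too. P2ry12 was at 45.9 ± 3.75 CPM (SD, n = 4) in the pre-plaque and at 39.8 ± 3.10 CPM (n = 5) in the post-plaque cohort. P2ry13 was at 16.9 ± 1.40 and 14.7 ± 1.16 CPM in the same order.

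Ordered by mean level over the 8 groups, the post-plaque APPPS1ΔE9 anle138b mice stood first for Cx3cr1, Sall1, Olfml3, Siglech, Gpr34, Tmem119 and P2ry12. For P2ry13 the pre-plaque APPPS1ΔE9 anle138b mice were first and for Selplg the pre-plaque APPPS1ΔE9 placebo mice. A post-plaque WT group was last for 8 of the 9 genes, the exception being Sall1. Most steps in these orders were small: of 63 pairs of neighbouring groups, 59 differed by less than the larger of their SDs. For Cx3cr1, the only wider step separated the first 3 groups, at 75.1 ± 9.92, 70.6 ± 9.73 and 69.5 ± 7.82 CPM, all transgenic, from the others, which began at 59.96 ± 6.54 CPM.

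The 9 genes also varied together between mice of the same group. Over the 38 mice, the deviations of log2 CPM from the group means had a Pearson r between 0.34 and 0.85 for the 36 pairs of genes, with a median of 0.65. Cx3cr1 and Siglech were the closest pair, at 0.85, and Sall1 and Olfml3 the most distant, at 0.34. The points share libraries, scaling and the composition of the dissected tissue, and r is given as a description. Cx3cr1 (0.88) and Siglech (0.88) followed the mean of the other 8 genes most closely and Olfml3 (0.65) least.

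**Figure D5:**
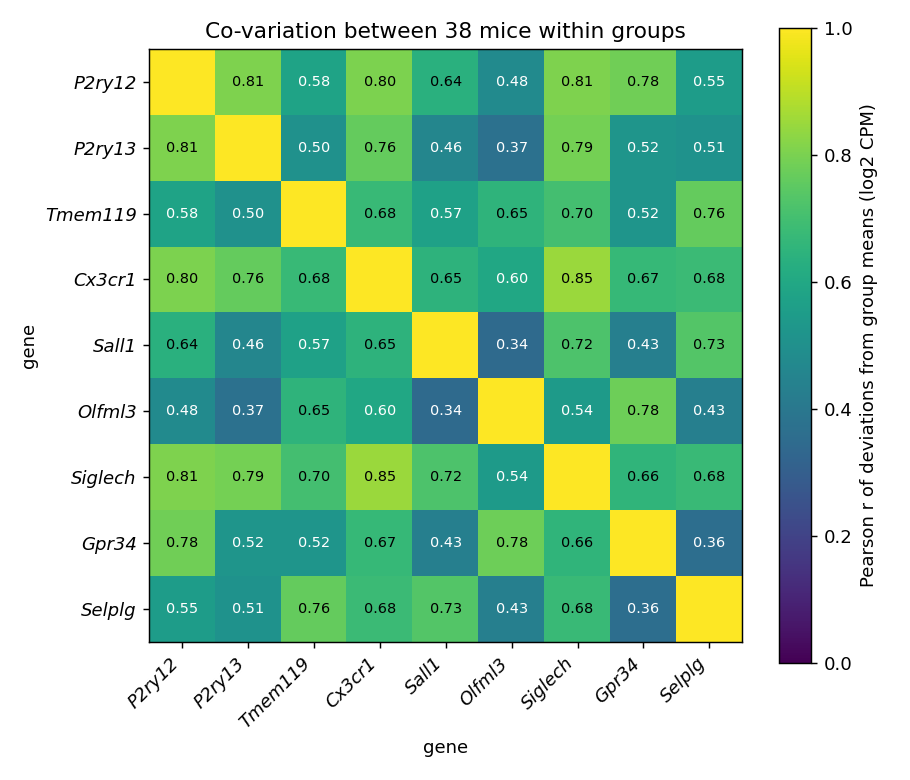
Pearson r between each pair of the 9 homeostatic genes (both axes list the genes, the colour gives r from 0 to 1) over 38 mice, computed on log2 CPM after subtracting each group's mean. All 36 pairs are positive, from 0.34 to 0.85.

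The mean of the 9 genes followed that of the 20 pan-microglial genes with r = 0.95 over the same deviations, and that of the plaque-induced genes with r = 0.77. For perivascular macrophage markers r was 0.00 and for choroid plexus markers -0.30, while hippocampal neuron markers reached 0.67. Of 15011 genes ranked, those outside the list most like its mean included Nckap1l (0.92), Vsir (0.91), Ctss (0.90), C1qb (0.89), Trem2 (0.89), Laptm5 (0.89), Ly86 (0.89), Csf1r (0.89) and Mpeg1 (0.89). Of these, Ctss, C1qb, Laptm5, Ly86 and Csf1r were pan-microglial genes of the lists used here and Trem2 a plaque-induced gene.

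Genes near the homeostatic genes on the chromosome were also looked at in the post-plaque comparison of genotypes. Within 1 Mb on each side, 0 of 14 tested neighbours of P2ry12 and of P2ry13, 0 of 23 of Olfml3 and 0 of 16 of Siglech passed the test. Cx3cr1 had 3 called neighbours of 31, Acaa1b, Slc25a38 and Ulk4, while Sall1 had 1 of 9, Adcy7, and Gpr34 1 of 9, Ddx3x. Tmem119 and Selplg lie within this distance of each other on chromosome 5, and both also had Cmklr1, a chemoattractant receptor gene, as a called neighbour. Over all 17668 genes tested, 275 passed in this comparison in either direction. The directions of the neighbours' changes are not given here, and whether their counts exceed that share was not tested. These neighbours are named after their values were seen.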

How the data were processed

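RNA from whole hippocampus of 38 mice was made into TruSeq mRNA libraries. The authors aligned reads to mm10 using STAR, assigned them to genes using HTSeq (mode intersection-nonempty) and deposited raw counts of 48709 genes per mouse. Which annotation release was used, and whether strand was taken into account, is not given in the sources used here.

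Symbols and coordinates came from GENCODE M21 (GRCm38), which held 48349 of these genes. Counts that passed filterByExpr (minimum count 10, minimum total 15) were scaled with TMM and tested in edgeR 4.0.16 (quasi-likelihood, robust) under R 4.3.3, with Benjamini-Hochberg adjusted p under 0.1 over all tested genes. SE is the standard error of the log2 fold change, and intervals are 95%. Ratios used log2 CPM with a prior count of 2 and limma 3.58.1. DESeq2 1.42.0, other scalings, filters, references, covariates and each mouse left out in turn were alternatives. The scripts were tested on simulated data.

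The 9 genes and all lists were chosen with earlier results of these data known. Named genes of other lists are those called, at most 6 per list in order of adjusted p, with Csf1r, Aif1, Cst7, Clec7a, Trem2, Cx3cl1 and Tgfb1 given throughout, and those not called given as values. A few genes that this rule names are not reported here. Groups came from the sample titles. Mice are the replicates, and no 2 mice of a group agreed within sampling noise. Depth was 15847985 to 31895808 counts per mouse, which covers each of the 9 genes with at least 217 counts. No sample was left out.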

Additional observations from a re-analysis of the deposited data

Results flagged for a closer look

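Of 72 combinations of a gene and a group, 4 held a mouse that stood apart from the others by Dixon's criterion, which chance meets in about 1 in 20 groups. Gpr34 was at 30.8 CPM in the third post-plaque APPPS1ΔE9 anle138b mouse, where the other 6 had 16.3 to 21.7 CPM. Gpr34 is on the X chromosome, and this was the only mouse of the 12 post-plaque APPPS1ΔE9 mice with high Xist (1354 CPM); the part of this in its value was not tested. It was at 21.04 CPM in the fourth pre-plaque APPPS1ΔE9 placebo mouse, with the others at 16.5 to 17.1 CPM. Olfml3 was at 19.8 CPM in a pre-plaque APPPS1ΔE9 anle138b mouse, below the other values of 22.02 to 22.2 CPM. Sall1 was at 20.8 CPM in a pre-plaque WT anle138b mouse, below 25.9 to 26.8 CPM. No genotype by chow or genotype by cohort interaction passed for any of the 9 genes (edgeR, adjusted p under 0.1).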

How the results depend on the processing

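The 5 post-plaque calls over both chows ranged from 5 to 6 when each mouse was left out, were 6 with DESeq2, and were 3 in Y-expressing mice alone, where 141 rather than 275 genes were called in all. With the replicate number as a block 3 of the 9 passed, and on anle138b 0 rather than 1. Same-numbered mice did not deviate together in every pair (lowest correlation -0.71, highest 0.72). The mean correlation ran from -0.32 between chows in post-plaque APPPS1ΔE9 mice to 0.40 between chows in post-plaque WT mice. With so few pairs these values cannot decide whether the number marks a pairing, and the main fits did not use it. On placebo after plaques, DESeq2 called 2 and no filter 1, and leaving out mice gave 0 to 1. On anle138b, DESeq2 called 2, all 4 groups in a single fit 2 and the Y-linked covariate 4, and leaving out mice gave 0 to 3. Before plaques on placebo, leaving out mice gave 0 to 1, and it gave 0 in the other comparisons of genotypes and chows before plaques, in those of chows after plaques and in the interactions. In post-plaque WT mice, Y-expressing mice alone gave 5 calls against 0, among 5550 genes. The cause of these shifts was not tested.

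Ratios before plaques gave 2 calls, 0 with the narrow list, 0 with the median of the list, 6 with Csf1r alone, 1 in Y-expressing mice, 1 at an adjusted p under 0.05, and 1 to 2 without single mice. After plaques they gave 9, 4 with Csf1r alone, and 8 to 9 without single mice.

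Estimates near 0 changed sign. Before plaques on placebo, Gpr34 was at -0.00050 without a filter and -0.0039 in the fit of 4 groups, and P2ry13 at -0.037 with the Y-linked covariate and -0.0079 in Y-expressing mice. On anle138b, Olfml3 was at 0.13 and 0.14 and Gpr34 at 0.068 and 0.081 with these settings. Over both chows P2ry13 was at -0.0022 and Gpr34 at 0.10 with the covariate, and P2ry12 at 0.014 and Gpr34 at 0.12 in Y-expressing mice. The ratio of Siglech was 0.0021 with the narrow list, and with the median Cx3cr1 was at 0.010, Siglech at 0.038 and Selplg at 0.034. After plaques, with Csf1r alone, Cx3cr1 was at 0.033, Olfml3 at 0.091 and Siglech at 0.0086, and Olfml3 was at 0.012 in Y-expressing mice.

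Leaving out single mice before plaques moved some estimates through 0. On placebo Gpr34 ranged from -0.084 to 0.091. On anle138b the ranges were -0.037 to 0.14 for P2ry12, -0.0034 to 0.12 for Tmem119, -0.063 to 0.048 for Cx3cr1, -0.079 to 0.035 for Olfml3, -0.0024 to 0.15 for Siglech and -0.17 to 0.034 for Gpr34. Over both chows they were -0.066 to 0.015 for P2ry12 and -0.080 to 0.018 for Gpr34, and between chows in APPPS1ΔE9 mice -0.046 to 0.087 for P2ry13 and -0.071 to 0.029 for Tmem119.

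Calls over all genes moved by over 1.5 times mainly with DESeq2 and with the Y-linked settings. DESeq2 called 139 against 12 genes between genotypes on placebo before plaques, 47 against 8 on anle138b, 118 against 30 over both chows, 204 against 9 between chows in APPPS1ΔE9 mice, and after plaques 1.96 times the 55 on placebo and 189 against 124 on anle138b. The Y-linked covariate gave 4 on placebo and 7 over both chows before plaques, 94 between chows in APPPS1ΔE9 mice, and 14 on placebo and 269 on anle138b after. Y-expressing mice alone gave 7 on placebo and 5 over both chows before plaques, and 8 and 51 on placebo and anle138b after. No filter gave 110 genes on placebo before plaques and 120 between chows in APPPS1ΔE9 mice. A fit of all 4 groups gave 35 and 3 for these, and the block 13 on anle138b before plaques and 25 and 20 on placebo and anle138b after. At an adjusted p under 0.05, 18 genes were called over both chows before plaques and 77 on anle138b after. DESeq2 called 22, 2, 16 and 44 genes in the 4 interactions against 0, 0, 0 and 5; in the last the covariate gave 18, the block 15 and the 0.05 threshold 2. Ratios before plaques called 7781 genes, 3936 with the narrow list, 12211 with Csf1r alone, 32 with the median of the list and 3713 at 0.05.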
